A study of Phaseolus vulgaris with 21 samples.

Results

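The onset of floral nectar secretion in common bean (Phaseolus vulgaris, cultivar Blue Lake 274) was described by comparing hand-dissected floral nectaries at full anthesis, when they secrete, with nectaries taken 12 h before anthesis. Each stage had 3 RNA-seq libraries, so the comparison used 6 of the 21 libraries of the study and all 6359 transcripts of its bean-to-soybean table. The secretory stage was collected 3 h after dawn, from plants under 16 h of light and 8 h of darkness, and the earlier stage is called pre2 in the labels. The other floral stages, pre1 at 24 h before anthesis and post at 12 h after the secretory stage, are given for context, and the study also holds leaf and extrafloral nectary libraries. No genotype or treatment separates the groups, which are labelled by stage. The hour of day of pre2 is not given, but a stage 12 h before anthesis falls at another time of day than one at anthesis. Stage and time of day therefore cannot be told apart.

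In nectaries, sucrose arrives through the phloem or from starch stored in the gland before flowering. In Arabidopsis and related plants, sucrose phosphate synthases and phosphatases remake sucrose in the gland cells, the transporter SWEET9 exports it, and the cell wall invertase CWINV4 splits it outside the cell, which draws water into the nectar. The MYB factors of the MYB305 and MYB21/MYB24 group promote nectary maturation and secretion, and CRABS CLAW is needed to form the gland. Legume floral nectaries sit around the base of the ovary.

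Each value is the authors' normalized read number for a soybean transcript that bean reads matched, so close gene copies may share reads. A name that ends in a transcript number marks a gene with further transcripts in the table, whose values are not given here. Values are not divided by transcript length, so fold changes are within a transcript, and a high value or a sum over a list reflects transcript length as well as abundance. Sums over the table were 4195541 to 4270943 at pre2 and 3581284 to 3769965 at the secretory stage. Pearson's r between log2 values, across transcripts, was 0.983 to 0.984 within pre2, 0.983 to 0.986 within the secretory stage and 0.909 to 0.929 between them. Values at 0 numbered 42 to 62 per library at pre2 but 0 to 6 at the secretory stage, and 226 transcripts averaged under 5 at pre2 against 36 at the secretory stage. The table therefore appears to hold transcripts detected at the secretory stage, and transcripts that were lost by that stage are not analysed here. In a dissected gland, fewer cells of a type and less RNA per cell cannot be told apart.

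Markers of the nectary itself were present in every library, namely the transcripts matched to CRABS CLAW, MYB24 and CWINV4, with values of at least 459 in each of the 6. The transcripts matched to CWINV4 were also matched to other Arabidopsis genes. None of the 9 nectar regulator and secretion transcripts was matched to MYB21. No transcript of the table matched the listed pollen and tapetum genes or the guard cell genes, so those cells could not be checked. Transcripts of other listed tissues were present. The 2 phloem transcripts summed to 1278 to 1485 at pre2 and 1041 to 1374 at the secretory stage. For the 2 epidermis and cuticle transcripts the sums were 874 to 935 and 560 to 729. The xylem and carpel lists are given below.

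Of the 6359 transcripts, 1052 rose (16.5%) and 858 fell (13.5%) by limma at an adjusted p under 0.05, together 30.0% of those tested. At an unadjusted p under 0.05 there were 2626. The median log2 fold change of all transcripts was -0.01. The increases were the larger: their median log2 fold change was 1.22, with 291 transcripts at 2 or more and 138 at 3 or more, up to 8.30. The decreases had a median of -0.76, with 21 transcripts that fell by 2 or more and 0 that fell by 3 or more. Since the table leans towards transcripts present at the secretory stage, deep falls could not be seen to the same extent as deep rises. Libraries did not overlap for 1692 transcripts that were higher at the secretory stage (26.6%) and 1708 that were lower (26.9%). No label says that the libraries of a stage came from different plants, so the p-values cover the spread between libraries only, and that spread may be technical. Changes are on the log2(value + 1) scale, which understates those of low transcripts.

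**Figure D1:**
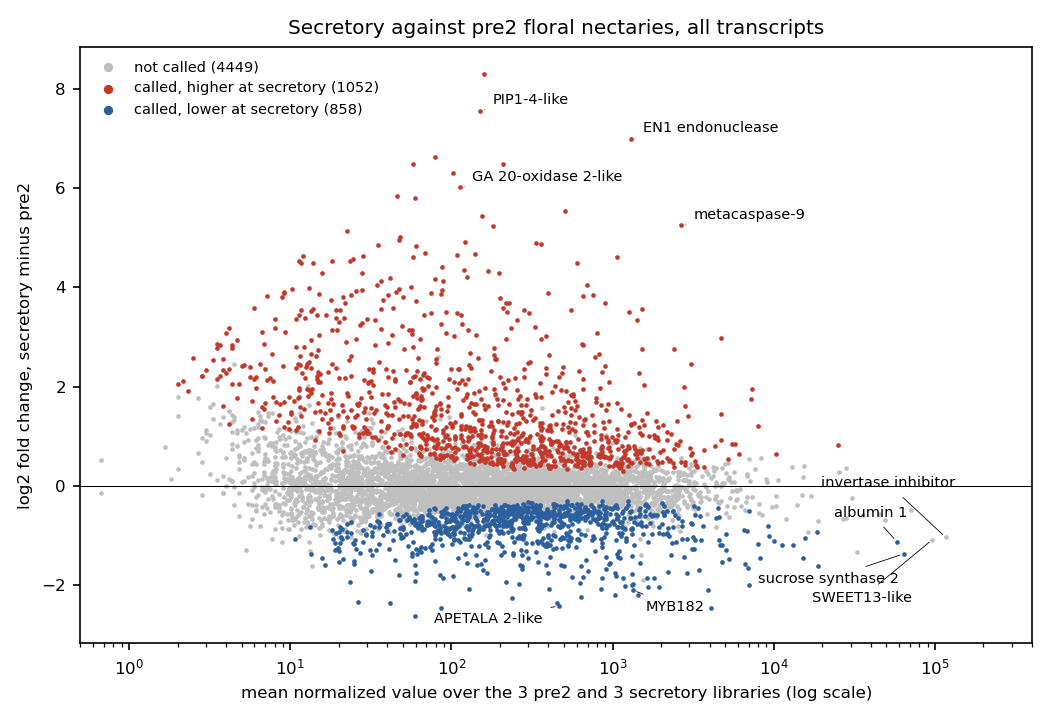
Log2 fold change, secretory minus pre2, of each of 6359 transcripts (vertical axis) against its mean normalized value over the 6 libraries (horizontal log axis), with the 1052 that rose in red, the 858 that fell in blue and the others in grey. The rises reach 8.30 and the falls stop at -2.63, and the 5 transcripts with the highest means lie below 0.

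Transcripts matched to the regulators MYB24 and CRABS CLAW were lower once secretion had begun, while those matched to ARF6 and ARF8 and to BOP2 were not called. Of 9 transcripts matched to nectar regulators and secretion genes, 0 rose and 5 fell, beside 16.5% and 13.5% of all transcripts. In this list 7 lay below pre2 with no overlap, beside 26.9% of all, and the median log2 fold change was -1.17. The list also holds the SWEET13-like LOC100810946 and the invertases LOC100777418 and CWINV, given below, and CWINV is among the 5. The MYB305-like transcript LOC100816972, matched to the Arabidopsis stamen and nectary factor MYB24, had values of 11238, 11831 and 10337 at pre2 and 4745, 5362 and 4698 at the secretory stage. All 3 secretory libraries were below all 3 of pre2. The log2 fold change was -1.17 (SE 0.27, adjusted p = 0.00626), which missed the threshold when all 21 libraries shared one spread (adjusted p = 0.137). Its relatives MYB98 and MYB182, matched to the same Arabidopsis gene and so possibly sharing reads, fell further. MYB98 went from 3715, 2593 and 3108 to 807, 688 and 778 (log2 fold change -2.04, SE 0.18, adjusted p = 4.73e-06). MYB182 went from 2444, 1833 and 2233 to 507, 459 and 539 (log2 fold change -2.10, SE 0.16, adjusted p = 2.32e-06). Both groups of libraries were tight and far apart.

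The CRABS CLAW match LOC100500026 had 2059, 1827 and 1588 at pre2 and 484, 479 and 528 at the secretory stage, and fell by 1.87 (SE 0.18, adjusted p = 1.52e-05). Its mean at pre1 was 6571, so it was already lower at pre2 than 12 h earlier. The auxin response factor LOC100814479, matched to ARF6 and ARF8, which in Arabidopsis act upstream of MYB21 and MYB24 and promote nectary formation, had 2372, 2300 and 2074 against 1700, 2256 and 1828. Those libraries overlapped and the test was not passed (adjusted p = 0.374). The same held for LOC100816086, matched to BOP2, at 285, 313 and 441 against 283, 334 and 303 (adjusted p = 0.565).

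Among transcripts for sugar export and extracellular cleavage, several with the highest values in the table had lower values in every secretory library than in any pre2 library. The SWEET13-like transcript LOC100810946 was matched to the nectar sucrose exporter SWEET9 and also to another Arabidopsis gene. It had 138070, 123228 and 130399 at pre2 and 61724, 48909 and 76977 at the secretory stage. The 3 secretory libraries were all below pre2, but the log2 fold change of -1.08 (SE 0.50) did not pass (adjusted p = 0.123). The invertase LOC100777418, matched to CWINV4 and to other Arabidopsis genes, had 44152, 47155 and 47039 and then 14325, 15406 and 27792, again with no overlap and no call (log2 fold change -1.33, adjusted p = 0.0598). The invertase inhibitor match LOC100500640 had 151647, 158025 and 160299 and then 65027, 70960 and 95097 (log2 fold change -1.04, adjusted p = 0.0704).

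These 3 transcripts varied widely at the other floral stages, whose spread entered the fit. LOC100810946 ran from 28795 to 105664 at pre1 and from 27583 to 81854 at post. With the 6 libraries alone the adjusted p was 0.00175 for LOC100810946, 0.000773 for LOC100777418 and 0.00213 for LOC100500640, and the authors' deposited table calls each of them different between pre2 and secretory. The 5 transcripts of highest mean, which include LOC100810946, LOC100500640, sucrose synthase 2 and albumin 1 (A1), held 12.4% to 13.2% of all values at pre2 and 6.76% to 7.89% at the secretory stage. A1, named after a family of small sulfur-rich proteins of legume seeds, fell from 80832, 77873 and 79021 to 39199, 28857 and 42063 (log2 fold change -1.13, adjusted p = 0.0126). Its call was lost with all 21 libraries (adjusted p = 0.458) and without secretory library 2 (adjusted p = 0.0685). The fifth, the uncharacterized LOC100101840, had 73516, 69667 and 100463 against 84118, 61755 and 36551, which overlap (adjusted p = 0.353).

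Of 11 transcripts for enzymes that make or split sucrose and their inhibitor, 1 rose and 4 fell, beside 16.5% and 13.5% of all transcripts. In the list 7 lay below pre2 without overlap, beside 26.9% of all, and the median was -0.93. Sucrose synthase 2 (LOC100802045), which splits or makes sucrose reversibly, fell from 100453, 89602 and 86486 to 30169, 31764 and 46905 (log2 fold change -1.37, SE 0.44, adjusted p = 0.0314), and a second sucrose synthase, SS, fell by 1.06 (adjusted p = 0.0117). The invertase CWINV, whose Arabidopsis matches include CWINV4 and others, fell from 25566, 23525 and 23367 to 11746, 11440 and 15201 (log2 fold change -0.93, adjusted p = 0.0283). The calls of LOC100802045 and CWINV were each lost when any of 5 single libraries was left out, with adjusted p up to 0.114 and 0.0995. Sucrose-phosphatase LOC100796915, the last step of sucrose synthesis, fell from 2168, 1774 and 1726 to 856, 730 and 877 (log2 fold change -1.20, adjusted p = 0.00489). The one rise was that of the neutral invertase LOC100785091, an intracellular enzyme, from 1013, 767 and 643 to 1603, 1623 and 1827 (log2 fold change 1.08, adjusted p = 0.00351).

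**Figure D2:**
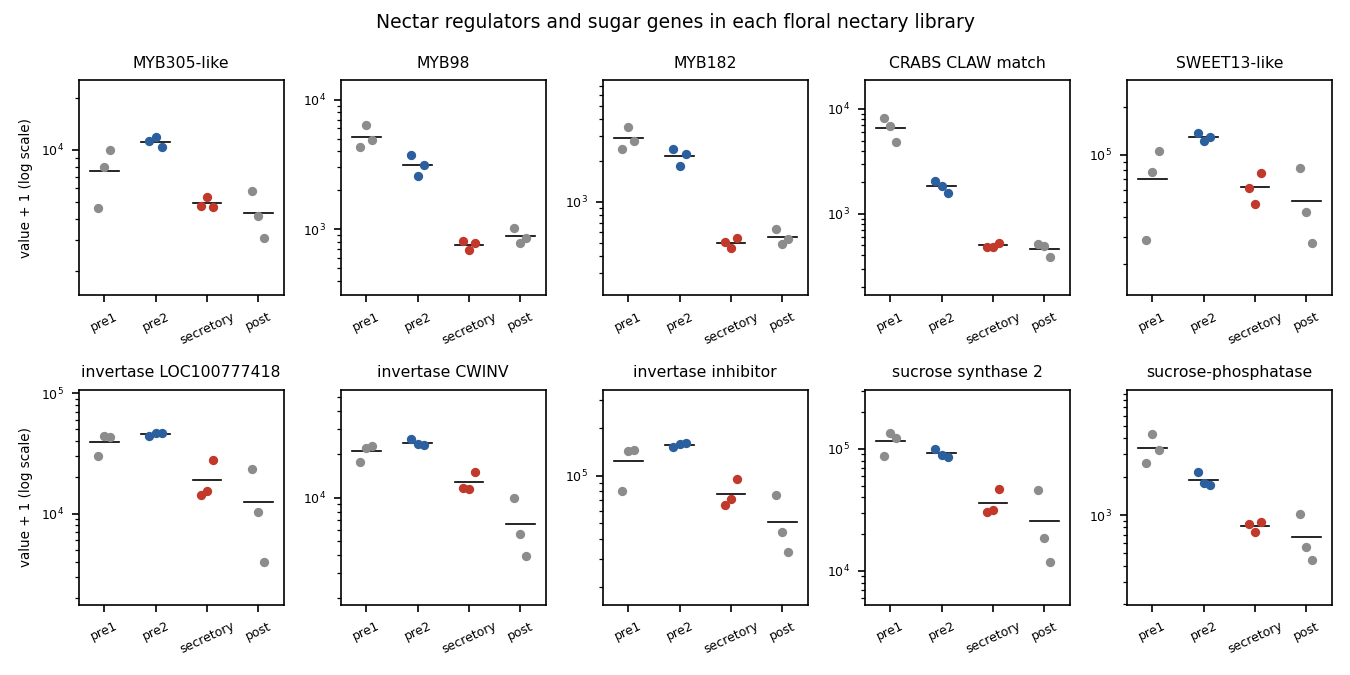
Normalized value + 1 (log axis) of 10 nectar regulator and sugar transcripts in each of the 12 floral nectary libraries, by stage, with pre2 in blue, secretory in red and a black line at each stage mean. In each panel the 3 secretory points lie below the 3 pre2 points, while pre1 and post points of the SWEET13-like and invertase transcripts scatter widely.

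Of the 10 sugar transporters, the SWEET13-like LOC100810946 included, 3 rose and 1 fell, beside 16.5% and 13.5% of all transcripts. The other 6 did not pass, and the list median was -0.12. LOC100305842, matched to the Arabidopsis vacuolar sugar carrier SWEET2, had 400, 421 and 416 at pre2 and 1569, 1227 and 1074 at the secretory stage, and rose by 1.63 (SE 0.29, adjusted p = 0.00134). The SWEET14-like LOC100810962 rose from 216, 331 and 190 to 799, 436 and 411 (log2 fold change 1.13, adjusted p = 0.00768), with secretory library 1 well above the others. The hexose uptake carrier STP1 rose from 30, 30 and 33 to 104, 90 and 97 (log2 fold change 1.61, adjusted p = 0.00259). The polyol carrier STP fell from 2620, 3192 and 3166 to 1406, 1415 and 1590 (log2 fold change -1.02, adjusted p = 0.0344), a call lost without any one of the 6 libraries (adjusted p up to 0.0976).

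The sucrose uptake carrier SUT1 had 1113, 1207 and 1359 against 1165, 1004 and 878, and the SWEET6b-like LOC100791284 had 7268, 7618 and 5730 against 6767, 6913 and 8196. Both overlapped (adjusted p = 0.163 and 0.876), as did the ERD6-like LOC100819822 at 50, 49 and 50 against 56, 52 and 46. LOC102669242, matched to SWEET7, had 2370, 3148 and 3140 against 1632, 1658 and 2036, without overlap and without a call (adjusted p = 0.247). The STP13-like LOC100799040, at 30, 24 and 29 against 22, 16 and 8, also missed the threshold (adjusted p = 0.0544).

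Of 11 starch degradation transcripts, 3 rose and 1 fell, beside 16.5% and 13.5% of all transcripts, and the list median of 0.01 was near that of all transcripts. The beta-amylase BMY1 (the transcript BMY1_NM_001249318.1), which releases maltose from starch, had 47, 50 and 46 and then 430, 715 and 532. It rose by 3.49 (SE 0.23, adjusted p = 5.9e-07). Its means at pre1 and post were 57.3 and 77.0, so among the floral stages the high level was seen at the secretory stage. Outside the flower its means were higher, at 2683 in leaf, 4736 in leaf extrafloral nectaries and 18239 in stem extrafloral nectaries. A second beta-amylase, BMY2, rose from 1426, 1632 and 1316 to 3996, 3520 and 3257 (2.46 times its pre2 mean, adjusted p = 0.00104) and averaged 4130 at post. On the synthesis side, 0 of 4 rose and 1 fell: plastid phosphoglucomutase LOC100778321 went from 18142, 14472 and 14586 to 6057, 6137 and 8516 (log2 fold change -1.20, adjusted p = 0.0143), which missed the threshold when any of 3 single libraries was left out (adjusted p up to 0.0588).

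Of the 7 transcripts of sugar status signalling, 2 rose and 0 fell, beside 16.5% and 13.5% of all transcripts. Both encode bZIP factors matched to Arabidopsis bZIP11, whose translation sucrose represses. LOC547956 rose from 209, 203 and 213 to 465, 477 and 560 (log2 fold change 1.26, adjusted p = 0.000457), and BZIP125 from 450, 441 and 531 to 734, 706 and 768 (log2 fold change 0.64, adjusted p = 0.00897). Both calls were lost with all 21 libraries (adjusted p = 0.0779 and 0.109).

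Aquaporins of the plasma membrane, which pass water, held one of the steepest rises. Among 12 pumps and aquaporins 4 rose and 1 fell, beside 16.5% and 13.5% of all transcripts, with a median of 0.58. The PIP1-4-like LOC100803259 was near 0 at pre2, with 0, 1 and 1, and had 335, 266 and 303 at the secretory stage (log2 fold change 7.57, SE 0.32, adjusted p = 1.32e-08). It averaged 3.00 at pre1 and 477 at post. PIP1 rose from 45, 78 and 44 to 366, 323 and 282 (log2 fold change 2.56, adjusted p = 0.0002). The vacuolar pyrophosphatase LOC100812548, which acidifies the vacuole, fell from 9791, 9516 and 10465 to 3241, 3244 and 3543 (log2 fold change -1.57, adjusted p = 0.00291). LOC100805218, a plasma membrane ATPase that pumps protons out of the cell, had 42512, 42353 and 43820 against 25310, 28543 and 31705, without overlap and without a call (adjusted p = 0.189). Of 20 vesicle fusion and exocytosis transcripts, 1 rose and 2 fell, beside the same shares of all transcripts.

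The list of senescence and cell death transcripts held 3 of the 10 most increased by the naming rule. Like the other lists, it was chosen with earlier results of these data known. The endonuclease EN1, matched to Arabidopsis BFN1, a nuclease of senescing and dying cells, had 23, 24 and 12 at pre2 and 3211, 2246 and 2273 at the secretory stage. It rose by 7.00 (SE 0.27, adjusted p = 6.39e-09), and averaged 3.33 at pre1 and 7188 at post. The cysteine-dependent protease metacaspase-9 (LOC100781510), known from dying xylem cells of Arabidopsis, had 89, 170 and 152 and then 6258, 5295 and 4031 (log2 fold change 5.26, SE 0.28, adjusted p = 8.54e-08). LOC100305644, matched to the Arabidopsis ribonuclease RNS1, went from 134, 62 and 62 to 2730, 1770 and 1613 (log2 fold change 4.61, SE 0.38, adjusted p = 3.68e-06). In all 3 the lowest secretory library was more than 10-fold above the highest of pre2.

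Of the 14 senescence and cell death transcripts, 6 rose and 1 fell, beside 16.5% and 13.5% of all transcripts. In the list 12 had a log2 fold change above 0 and the median was 0.48. The other rises included the cysteine protease CYSP1, at 17304, 17518 and 19373 against 35817, 31898 and 28456 (log2 fold change 0.82, adjusted p = 0.0218), whose call was lost without any of 5 single libraries (adjusted p up to 0.0871). In the xylem list 2 of 3 transcripts rose and 0 fell, beside 16.5% and 13.5% of all transcripts. The 2 fasciclin-like transcripts rose, LOC100796367 from 31, 43 and 33 to 89, 80 and 88 (adjusted p = 0.0229) and LOC100805219_XM_006604508.2 from 0, 1 and 1 to 13, 12 and 13 (adjusted p = 0.000363). The call of LOC100796367 was lost with all 21 libraries and without any of 5 single libraries (adjusted p up to 0.0721). Summed over 3 transcripts the list went from 1174 to 1405 at pre2 to 1520 to 2094. Only 2 of its 10 Arabidopsis genes matched a transcript of the table, and those matched by none include the xylem proteases XCP1 and XCP2 and the master regulator VND7. The part of xylem cells in the cell death transcripts was not tested.

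The most increased transcripts by the naming rule also included regulators and carriers. NAC72 (LOC100811301), a NAC transcription factor, rose from 25, 23 and 20 to 825, 710 and 559 (log2 fold change 4.87, adjusted p = 6.66e-07). That name is its soybean description, and its Arabidopsis match is another NAC gene. The homeobox factor ATHB-7-like LOC100793260, whose Arabidopsis match answers to abscisic acid and drought, rose from 101, 82 and 102 to 1910, 1383 and 964 (log2 fold change 3.84, adjusted p = 3.31e-06). The inositol transporter LOC100815588 rose from 44, 64 and 33 to 666, 1148 and 424 (log2 fold change 3.89, adjusted p = 3.68e-06) and averaged 133 at post. No functional name is given for the other two of the 10 not described elsewhere: LOC100813958 rose by 4.90 (adjusted p = 6.7e-08) and LOC100819509 by 4.05 (adjusted p = 3.45e-06).

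**Figure D3:**
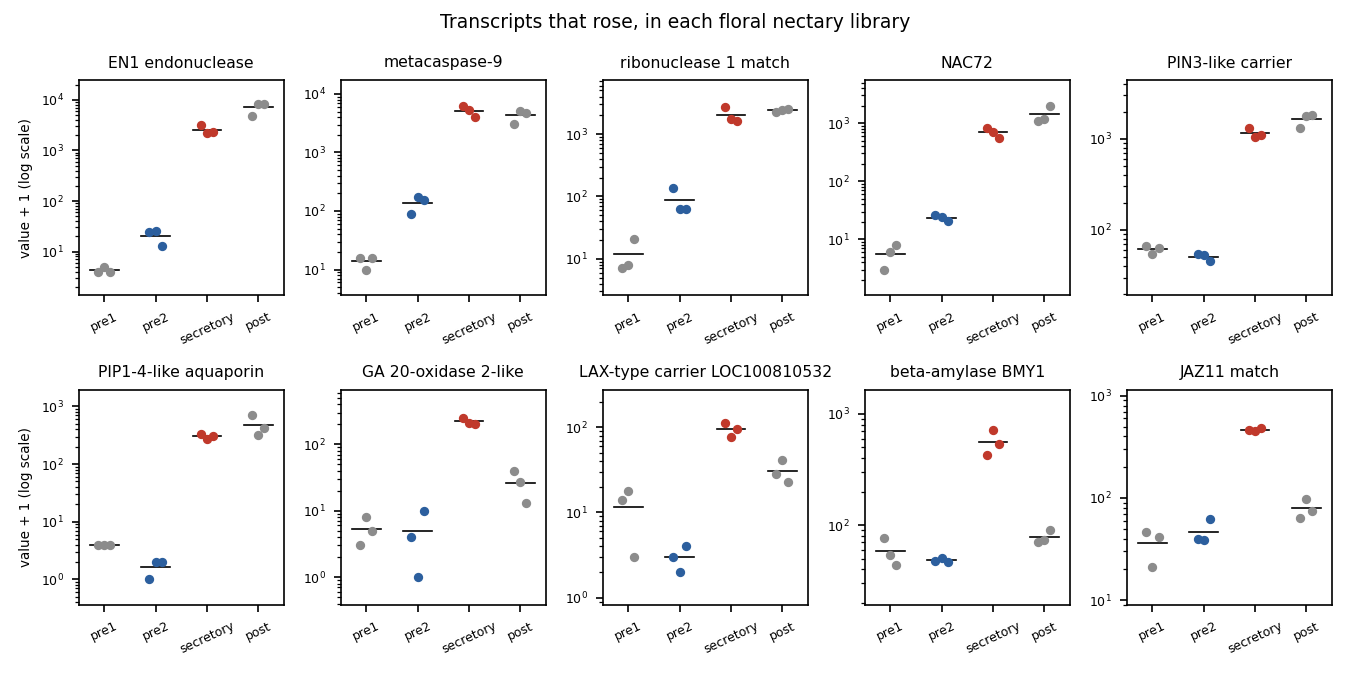
Normalized value + 1 (log axis) of 10 transcripts that rose, in each of the 12 floral nectary libraries, by stage, with pre2 in blue, secretory in red and a black line at each stage mean. The secretory points lie clear of pre2 in every panel. At post, EN1 averaged 7188, above its secretory libraries, and BMY1 averaged 77.0, below its own.

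Hormone transcripts changed in gibberellin, auxin, ethylene and abscisic acid pathways. In gibberellin, 3 of 5 rose and 0 fell, beside 16.5% and 13.5% of all transcripts. The biosynthetic gibberellin 20-oxidase 2-like LOC100816992 had 3, 0 and 9 at pre2 and 252, 211 and 203 at the secretory stage (log2 fold change 6.02, SE 0.68, adjusted p = 4.35e-05), and averaged 4.33 at pre1 and 25.7 at post. The receptor LOC100775474 rose by 0.57 (adjusted p = 0.0247), a call lost without any of 5 single libraries (adjusted p up to 0.105). The cytochrome P450 LOC100785420, of a family with members that inactivate gibberellins in rice and Arabidopsis, is in no list used here and rose from 19, 24 and 17 to 1076, 1147 and 748 (log2 fold change 5.55, adjusted p = 2.4e-06).

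In auxin, 9 of 22 rose and 2 fell, beside 16.5% and 13.5% of all transcripts. In the list 12 lay above pre2 without overlap, beside 26.6% of all, and the median was 0.60. The efflux carrier PIN3-like transcript LOC100802247_XM_006605305.2 rose from 53, 52 and 45 to 1314, 1038 and 1111 (log2 fold change 4.50, SE 0.16, adjusted p = 3.65e-09). The influx carrier LOC100810532 rose from 2, 1 and 3 to 112, 75 and 94 (log2 fold change 5.02, SE 0.55, adjusted p = 3.76e-05). Of the Aux/IAA repressors, LOC100305535 rose by 1.83 (adjusted p = 0.000248) and LOC100811879 by 3.15 (adjusted p = 5.43e-05), while LOC100783314 fell by 0.60 (adjusted p = 0.0277, up to 0.116 when any of 5 single libraries was left out).

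In ethylene, 5 of 11 rose and 0 fell, beside 16.5% and 13.5% of all transcripts. The receptor LOC100787425 rose from 563, 540 and 536 to 1208, 1162 and 1311 (log2 fold change 1.16, adjusted p = 5.67e-05). LOC100807427, an ACC oxidase that makes ethylene, rose from 15, 16 and 15 to 158, 147 and 164 (log2 fold change 3.27, SE 0.62, adjusted p = 0.00183). In abscisic acid, 3 of 8 rose and 1 fell, beside the same shares of all transcripts. The hydroxylase LOC100170674, which breaks the hormone down, rose from 165, 126 and 124 to 467, 474 and 265 (2.91 times its pre2 mean, adjusted p = 0.000708). The phosphatase LOC100818568, of the group that represses abscisic acid signalling, rose by 0.85 (adjusted p = 0.00168).

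Jasmonate genes split evenly, with 6 of 22 higher and 6 lower, beside 16.5% and 13.5% of all transcripts, and a median of -0.14. The lipoxygenase LOC547869 rose from 9, 1 and 3 to 116, 65 and 154 (log2 fold change 4.62, adjusted p = 3.82e-05), and its match is the Arabidopsis enzyme LOX1, which is not of the jasmonate branch. The JAZ repressor match LOC100306282 rose from 39, 38 and 61 to 461, 447 and 488 (log2 fold change 3.34, adjusted p = 4.73e-06), and averaged 78.0 at post. LOC100306045, matched to the same JAZ gene, fell by 0.85 (adjusted p = 0.00177), with its call lost with all 21 libraries (adjusted p = 0.0556). The acyl-CoA oxidases ACX1;1 and ACX1;2, of the last steps of jasmonate synthesis, fell to 0.495 and 0.403 times their pre2 means (adjusted p = 0.000916 and 0.000125).

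Floral organ identity genes were mostly lower, with 1 of 14 higher and 7 lower, beside 16.5% and 13.5% of all transcripts, and a median of -0.56. The APETALA 2-like LOC100797238 fell the most among them, from 773, 727 and 856 to 121, 154 and 164 (log2 fold change -2.42, SE 0.21, adjusted p = 4.73e-06). The AGAMOUS-like LOC100776263, which specifies stamens and carpels and also stands in the carpel list, fell from 1473, 1428 and 1594 to 745, 699 and 878 (log2 fold change -0.96, adjusted p = 0.00232). The MADS-box transcript LOC732595 fell by 0.97 (adjusted p = 0.000828), with its call lost with all 21 libraries (adjusted p = 0.239). The DEFICIENS-like LOC100784496, a petal and stamen gene, went the other way and rose by 0.56 (adjusted p = 0.0132). Its call was lost with all 21 libraries and without pre2 library 1 or secretory library 2 (adjusted p up to 0.365). The carpel and ovule list as a whole had 0 of 4 higher and 1 lower, and its summed level was 5717 to 6099 at pre2 and 4059 to 4659 at the secretory stage. The part of carpel tissue in these falls was not tested.

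Cell wall expansion genes had 6 of 14 higher and 2 lower, beside 16.5% and 13.5% of all transcripts. Their median was 1.21, although their summed level went from 10735 to 11532 at pre2 down to 7197 to 9871. The xyloglucan-modifying LOC100785313 rose from 2, 2 and 1 to 32, 28 and 23 (log2 fold change 3.44, adjusted p = 1.52e-05), and 19-1-5, annotated as syringolide-induced, rose by 2.23 (adjusted p = 0.000454). The endoglucanase LOC100807040 fell from 5939, 6461 and 6232 to 2275, 4058 and 2631 (log2 fold change -1.10, adjusted p = 0.00587). Phenylpropanoid genes had 4 of 9 higher and 0 lower: the caffeoyl-CoA methyltransferase LOC100799303, of lignin synthesis, rose from 67, 65 and 117 to 692, 625 and 582 (log2 fold change 2.97, adjusted p = 5.51e-05).

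Defence and nectar protein genes had 3 of 17 higher, near the 16.5% of all transcripts, and 5 lower, beside 13.5%. The osmotin-like antifungal proteins OLPa and OLPb rose from 7, 10 and 16 to 109, 121 and 140 and from 11, 8 and 7 to 137, 165 and 123 (log2 fold changes 3.43 and 3.89, adjusted p = 2.37e-05 and 1.51e-05). The antimicrobial snakin-2-like LOC100795140 fell from 29924, 24364 and 30887 to 9097, 7135 and 11868 (log2 fold change -1.62, adjusted p = 0.0156), a call lost in 4 of the alternative fits (adjusted p up to 0.29). The oxidase LOC100787949, which makes superoxide at the plasma membrane, fell by 0.89 (adjusted p = 0.000618).

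Of 14 amino acid and nitrogen transcripts, 4 rose and 3 fell, beside 16.5% and 13.5% of all transcripts, with a median of -0.04. The amino acid permease LOC100818535_XM_014771190.1 rose from 15, 18 and 17 to 226, 226 and 147 (log2 fold change 3.48, adjusted p = 4.73e-06). Proline dehydrogenase PDH, which degrades proline, rose from 329, 338 and 381 to 762, 776 and 770 (log2 fold change 1.14, adjusted p = 0.000193, lost with all 21 libraries at 0.0888). P5CS, which makes proline, fell from 57, 45 and 44 to 15, 20 and 9 (log2 fold change -1.72, adjusted p = 0.000778).

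**Figure D4:**
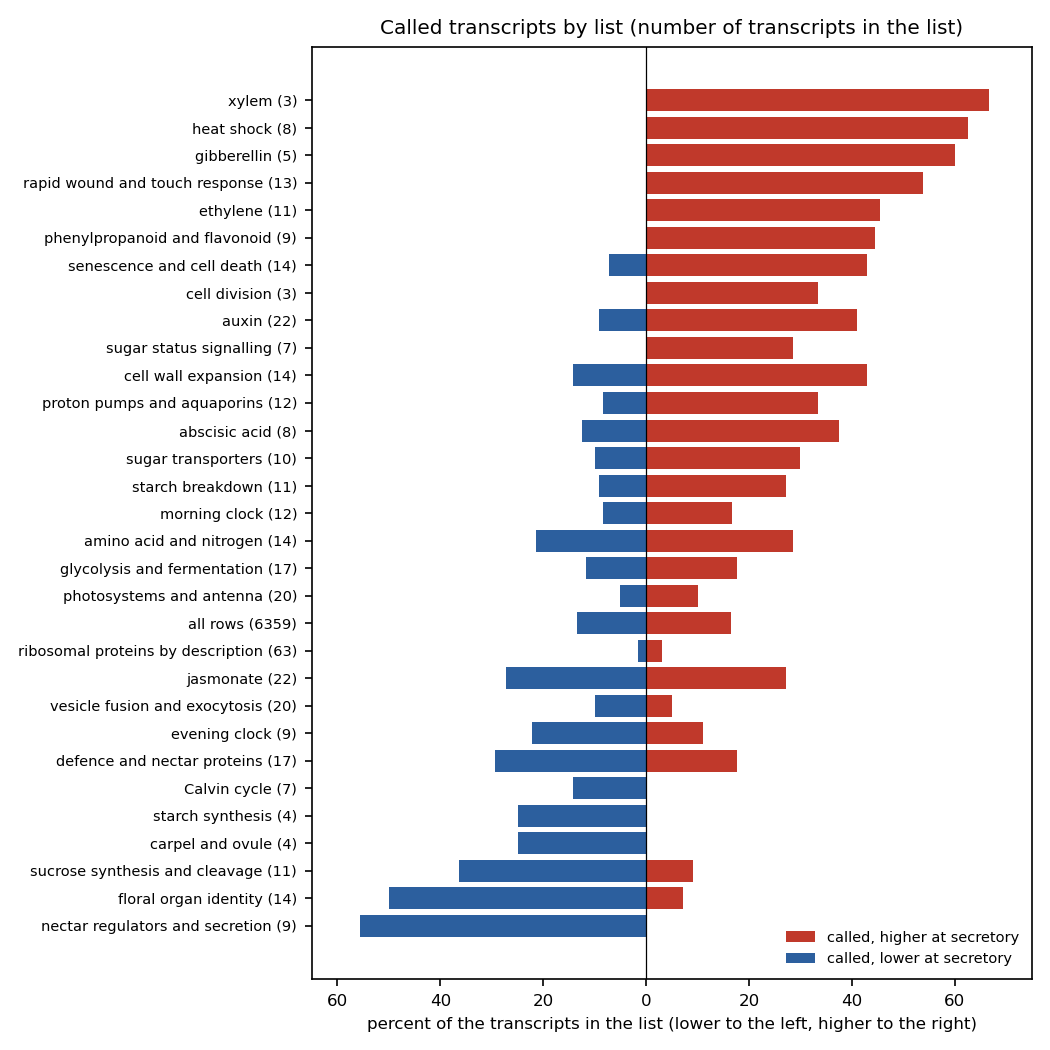
Percent of the transcripts of each list (number in parentheses) that rose, to the right in red, or fell, to the left in blue, between pre2 and the secretory stage, with all 6359 transcripts as one of the bars. The nectar regulator list has 5 of 9 lower and the heat shock list 5 of 8 higher, beside 13.5% and 16.5% of all transcripts.

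The most decreased transcripts by the naming rule were, besides MYB182 and LOC100797238, mostly of other kinds. The uncharacterized LOC100306442 fell from 6775, 6675 and 6909 to 881, 976 and 2124 (log2 fold change -2.47, SE 0.42, adjusted p = 0.000898), with secretory library 3 above the others. The phosphate uptake carrier LOC100803626 fell from 700, 816 and 756 to 141, 146 and 149 (log2 fold change -2.37, adjusted p = 0.000753). The bZIP factor LOC100791105 fell from 5764, 5913 and 7241 to 1147, 1502 and 1813 (log2 fold change -2.10, adjusted p = 0.00519). The other 5, LOC100795901, LOC100786423, LOC100816613, LOC106797272 and LOC100785941, had log2 fold changes of -2.24 to -2.08, and no secretory library of theirs reached a pre2 library.

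Lists that stand for heat and handling were higher at the secretory stage. All 8 heat shock transcripts had a log2 fold change above 0, 5 rose, beside 16.5% of all transcripts, and the median was 1.33. Their summed level was 32389 to 35603 at pre2 and 49218 to 54772 at the secretory stage. The small heat shock protein match LOC100500666 rose from 151, 168 and 152 to 1217, 1147 and 1054 (log2 fold change 2.85, adjusted p = 6.26e-06). Of 13 rapid wound and touch transcripts, 7 rose and 0 fell (median 1.32, summed level 2619 to 2794 and then 3212 to 4251), and the zinc finger factor STF-3 rose from 4, 6 and 6 to 144, 92 and 49 (log2 fold change 3.81, adjusted p = 1.54e-05). The wall transcript LOC100785313 stands in the wound and touch list too. The part of heat and handling in the other changes was not tested.

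For time of day, 2 of 12 morning clock transcripts rose and 1 fell (median -0.32), beside 16.5% and 13.5% of all transcripts. Among 9 evening transcripts 1 rose and 2 fell (median 0.08). Without overlap, 3 of the 12 morning transcripts lay above pre2 and 6 below, and of the 9 evening ones 1 above and 3 below. Over all transcripts these shares were 26.6% and 26.9%. The part of time of day in the other changes was not tested. A transcript of the morning oscillator gene LHY (LOC780540_XM_006604855.2, with others of the gene not given here) had 4197, 4747 and 4098 against 3191, 4753 and 5581, which overlap (adjusted p = 0.979). The evening gene TOC1 had 696, 605 and 568 against 713, 784 and 620 (adjusted p = 0.341). Neither passed the test, while the pseudo-response regulator LOC100809490_XM_006604851.2, which stands in both lists, rose by 0.98 (adjusted p = 0.00728) and the photoreceptor ZTL2 fell by 0.83 (adjusted p = 0.00319). Of 63 transcripts described as ribosomal proteins, without those named as chloroplast or mitochondrial, 2 rose and 1 fell. The fall was that of LOC100780996_XM_014772972.1, described as a 30S protein homolog, and one rise that of LOC100809143, described as a 50S protein, which are types of organelle and bacterial ribosomes. The call of LOC100809143 was lost in 7 of the 14 alternatives (adjusted p up to 0.123). The other rise was that of the 60S protein L10 LOC100779884, from 213, 161 and 227 to 830, 791 and 1472 (log2 fold change 2.31, adjusted p = 9.65e-05), a call kept in all of them.

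The authors' deposited table calls 1900 transcripts different between pre2 and secretory, 914 with the secretory mean above and 986 below. Of these, 1429 are also called here, which is 75.2% of theirs and 74.8% of the 1910 here.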

How the data were processed

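Floral nectary RNA was sequenced as paired 50 bp reads over 2 lanes, per the labels' protocols. The deposited values are a score, read counts on soybean transcripts rescaled by upper quartile and rounded by the authors, per the file headers. The mapper is not given in the sources used here, and the submitters' processing notes name DESeq without a version. The design had a count model in case the values were raw counts, and since they are normalized they were tested as log2(value + 1), with a pseudocount of 1 and no filter on low values. One mean per floral stage was fitted (4 stages, 12 libraries, 8 residual degrees of freedom) over all 6359 transcripts in R 4.3.3, using limma 3.58.1 and a prior variance that follows the mean level. The contrast was secretory minus pre2, two-sided, with Benjamini-Hochberg adjustment and a threshold of 0.05. The script was tested on simulated data. The steps between low values put 1 read at 0.852 to 1.12 units in 5 of the 6 libraries compared, or about 3358543 to 4463027 reads, so values of a few units rest on a few reads. The sixth gave no clear spacing.

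Lists were sets of Arabidopsis loci, joined to transcripts by the matches in the table, and 5757 transcripts carry such a match, 1133 of them several. Lists and members were chosen with earlier results of these data known. Named transcripts were the 10 most increased and 10 most decreased (called, no overlap, the larger stage mean reaching 491, the 75th percentile over transcripts), up to 2 called per list by smallest adjusted p, all nectar regulators and sugar transporters, and the 5 of highest mean. Any others given with values were chosen after their values were seen. Same-numbered pre2 and secretory libraries had deviations from their stage means that correlated at -0.0399, 0.0999 and 0.000836, and differently numbered ones at -0.126 to 0.132. With 3 libraries a stage this cannot decide whether the numbers mark shared plants or days, and the labels do not say. No 2 floral libraries were identical. The 9 leaf and extrafloral libraries were used in one alternative fit. No column of per-sample values was left without a sample. The alternatives changed the libraries fitted, pseudocount, filter, scaling, replicate block and each library in turn.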

Additional observations from a re-analysis of the deposited data

How the results depend on the processing

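The main counts were 1052 higher and 858 lower. With all 21 libraries they were 802 and 557, and with the 6 libraries alone 1389 and 1303, so the falls in particular depend on which libraries set the spread. Leaving out one library at a time gave 770 to 878 higher and 492 to 694 lower. The lower count moved by over 1.5 times without pre2 library 1 (545), pre2 library 3 (543) or secretory library 2 (492). A pseudocount of 10 gave 1073 and 882, a mean of at least 10 gave 1003 and 863 of 6120 transcripts, median ratios gave 1100 and 809 and equal upper quartiles 1050 and 875. Fitting the 5 libraries without secretory library 1, an alternative chosen after seeing the data, gave 1119 and 1110. The replicate block gave 1014 and 815, although no label says that the numbers pair the libraries. It left LOC100802045 (adjusted p = 0.0575), STP (0.0594) and LOC100800351 (0.0502) without a call and gave one to LOC100799040 (0.0367). No called transcript changed direction in any of the 14 alternatives, but this was largely fixed in advance. Adding or removing other stages, the filter and the block leave the log2 fold change as it was. Leaving out 1 library cannot reverse a transcript without overlap, which 1040 of the 1052 rises and 850 of the 858 falls were. Of 77 named transcripts that were called, 58 kept the call in all of them and 19 lost it in at least 1, and of 137 called list members 85 kept it. Library size limits calls near 0, and the lean of the table towards the secretory stage limits what can be seen to fall.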
